A study of Mus musculus with 8 samples.

Results

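The autosomal genes of the cytosolic ribosomal proteins were examined in allele-resolved RNA-seq of mouse embryonic fibroblasts (MEFs). Members were the protein-coding autosomal genes with an Rpl or Rps symbol (ribosomal S6 kinase and Rps19bp symbols left out) and at least 10 allelic reads in a pool. There were 77 such genes among 46078 gene IDs. Of 81 candidates, Rpl3l, Rpl10l and Rpl39l had 0 reads in every pool, and Rps16 had 3 to 6. Classed by symbol, the 77 members comprised 30 genes of the small 40S subunit, 43 of the large 60S subunit and 4 paralogs (Rpl22l1, Rpl36al, Rpl7l1 and Rps27l). The 40S class so defined holds Rps27rt, a gene whose exons span its whole length of 374 bases and that has 10 near-identical copies. The members lay on 18 autosomes, 13 of them on chromosome 7.

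The samples came from clonal female MEF lines labelled as 129S1/SvImJ x CAST/EiJ. The study's text names the 129 strain 129Sv4/Jae, and reads were assigned to alleles by the sequence differences of 129S1/SvImJ. All groups inherited the inactive X chromosome (Xi) from the 129 strain and the active X from CAST. WT cells kept Xist, the noncoding RNA that coats the Xi, and XiΔXist cells lacked it on the Xi. Lentivirus brought either a scrambled hairpin RNA (shSCR) or a hairpin against the transcription factor YY1 (shYY1) into XiΔXist cells. A different YY1 hairpin was used in each of the 2 shYY1 samples. Each group had 2 samples whose reads the deposited counts pool, so that 1 value per allele and pool existed, no spread between replicates could be computed, and every interval below covers counting error only. The lines are clonal, so that genotype and clone cannot be told apart between the WT and XiΔXist pools.

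The pools held 18745483 (WT), 21342574 (XiΔXist), 1470870 (shSCR) and 1472083 (shYY1) autosomal allelic reads, and levels are given as CPM, counts per 1000000 of these. Xist had 35405 reads in WT, of which 35256 were of the 129 allele, against 21 in XiΔXist, 0 in shSCR and 6 in shYY1. Yy1 stood at 82.1 CPM in WT and 79.5 in XiΔXist. After transduction it was at 161 CPM with shSCR and 62.5 with shYY1. Fibroblast markers summed to between 5140 and 15700 CPM. Of the 10 listed, only Dcn lacked reads in a pool, at 32.6 CPM in WT and 102.7 in XiΔXist but with 0 reads in shSCR and 1 in shYY1. Markers of epithelial, blood and endothelial cells summed to at most 3.40 CPM per list, with Krt18 and Spi1 at 0 in every pool. Per the study's sequencing list the hairpin libraries were sequenced with longer reads than the untreated ones, and a longer read covers more strain differences. The hairpin pools also differed from untreated XiΔXist in allelic makeup. The median 129 share of the genes on chromosome 14 was 52.0% in XiΔXist and 0% in both hairpin pools, on chromosome 12 it was 50.4% in XiΔXist and 27.6% in shSCR, and on chromosome 13 59.4% and 75.4%. Clone or passage, read length, transduction, culture and depth cannot be told apart between the hairpin and the untreated pools, in any value that sets one beside the other.

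Ribosomal proteins are made in near-equal amounts, and each cytosolic ribosome carries 1 copy of nearly all of them beside the ribosomal RNAs. Their mRNAs are among the most abundant of growing cells and start with a run of pyrimidines, the 5′ TOP element, through which mTOR signaling adjusts their translation. Their promoters commonly hold sites for GABP/ETS factors and SP1, and YY1 was described early as a factor, then called delta, that binds near the starts of mouse Rpl30 and Rpl32. Mammalian genomes carry many processed pseudogenes copied from these mRNAs. Of the 77 members, 68 had a near-identical transcript of another annotated gene (median 9 copies, at most 88 for Rpl7a), and 38 shared exon bases with another gene. Reads of such copies may be mixed into a member's count or taken from it, and only reads over a strain difference were counted, so that levels are not compared between genes.

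To show what the YY1 comparison bears on, the promoters were read first. RefSeq promoter windows (GRCm38.p6), from 250 bases before the annotated start to 50 bases after it, were found for 57 members (68 windows). The YY1 core GCCATNTT, searched on both strands, occurred in 23.5% of these windows against 6.03% of all 31396 autosomal windows, in 12 genes. The GABP/ETS motif CCGGAAG occurred in 36.8% against 9.0%, and the SP1 box GGGCGG in 60.3% against 36.0%. TATAAA was found in 7.35% against 13.6%. A C or T run of at least 8 bases covering the start base was held by 25% of member windows and by 3.89% of all windows. A match is a description and not a bound site. Below are the 8 genes with the YY1 core between 110 bases before and 20 bases after the start, printed in that stretch in the direction of transcription with the core in capitals. A core on the other strand appears as its reverse complement.
Rpl24: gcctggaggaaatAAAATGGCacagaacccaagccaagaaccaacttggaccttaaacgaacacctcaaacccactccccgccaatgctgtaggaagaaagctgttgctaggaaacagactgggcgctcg
Rpl28: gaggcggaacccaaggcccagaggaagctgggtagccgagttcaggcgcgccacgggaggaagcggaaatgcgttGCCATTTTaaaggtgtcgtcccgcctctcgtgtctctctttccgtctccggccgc
Rpl34: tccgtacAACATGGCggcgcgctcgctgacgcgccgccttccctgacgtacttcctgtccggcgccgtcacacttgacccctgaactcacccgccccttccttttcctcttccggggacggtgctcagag
Rpl35a: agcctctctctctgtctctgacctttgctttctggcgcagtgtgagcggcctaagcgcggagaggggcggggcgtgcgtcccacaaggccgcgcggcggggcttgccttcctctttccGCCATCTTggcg
Rps15a: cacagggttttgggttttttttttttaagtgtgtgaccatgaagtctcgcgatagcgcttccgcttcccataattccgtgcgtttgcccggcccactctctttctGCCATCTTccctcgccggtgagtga
Rps19: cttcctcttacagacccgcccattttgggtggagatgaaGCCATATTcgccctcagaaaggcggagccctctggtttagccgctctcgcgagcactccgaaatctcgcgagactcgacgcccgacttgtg
Rps27: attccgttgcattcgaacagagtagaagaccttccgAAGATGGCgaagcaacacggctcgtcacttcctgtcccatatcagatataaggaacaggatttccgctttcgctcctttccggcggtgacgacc
Rps28: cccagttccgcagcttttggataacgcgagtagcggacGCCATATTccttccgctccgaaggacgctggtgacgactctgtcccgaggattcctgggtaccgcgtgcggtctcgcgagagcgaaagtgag

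They lie at chr16:55966165-55966294 (+ strand) for Rpl24, chr7:4792855-4792984 (+ strand) for Rpl28, chr3:130730318-130730447 (- strand) for Rpl34, chr16:33056372-33056501 (+ strand) for Rpl35a, chr7:118116128-118116257 (- strand) for Rps15a, chr7:24884482-24884611 (+ strand) for Rps19, chr3:90213629-90213758 (- strand) for Rps27 and chr17:33824543-33824672 (- strand) for Rps28. The core lay before the start in Rpl24, Rpl28, Rpl34, Rps19, Rps27 and Rps28, across it in Rps15a (from base -5 to base 3) and after it in Rpl35a (base 9 to base 16).

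The pyrimidine run is shown for 5 members, 40 bases before to 20 bases after the annotated start, with the run in capitals. These are Rpl14 and Rpl38 of the large subunit, the stalk protein Rplp2, and Rps6 and Rps18 of the small subunit.
Rpl14: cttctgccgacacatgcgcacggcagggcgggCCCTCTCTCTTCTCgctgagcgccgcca
Rpl38: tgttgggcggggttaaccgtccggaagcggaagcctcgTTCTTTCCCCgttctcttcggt
Rplp2: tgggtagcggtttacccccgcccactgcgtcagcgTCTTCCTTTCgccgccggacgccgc
Rps6: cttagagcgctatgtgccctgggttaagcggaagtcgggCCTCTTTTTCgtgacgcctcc
Rps18: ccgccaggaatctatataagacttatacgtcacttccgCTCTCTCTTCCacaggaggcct
They lie at chr9:120571477-120571536 (+ strand) for Rpl14, chr11:114668540-114668599 (+ strand) for Rpl38, chr7:141447611-141447670 (+ strand) for Rplp2, chr4:86857348-86857407 (- strand) for Rps6 and chr17:33955646-33955705 (- strand) for Rps18. The runs covered 14 bases in Rpl14, 11 in Rps18 and 10 each in Rpl38, Rplp2 and Rps6.

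In the untreated pools the members together made up 0.419% (95% Wilson interval 0.416% to 0.422%) of autosomal allelic reads in WT and 0.424% (0.421% to 0.427%) in XiΔXist. They made up 1.06% (1.04% to 1.07%) in shSCR and 1.04% (1.03% to 1.06%) in shYY1. The untreated pools thus lay close together, as did the hairpin pools, and the hairpin pair lay above the untreated pair. A member's median level was 18.8 CPM in WT and 18.3 in XiΔXist, beside 53.7 in shSCR and 57.7 in shYY1. Rpl4, of the large subunit and the member with the most reads (14054 in WT), stood at 749.7, 746, 1178 and 1253 CPM in this order of pools. Rpl35 had no read in either untreated pool.

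**Figure D1:**
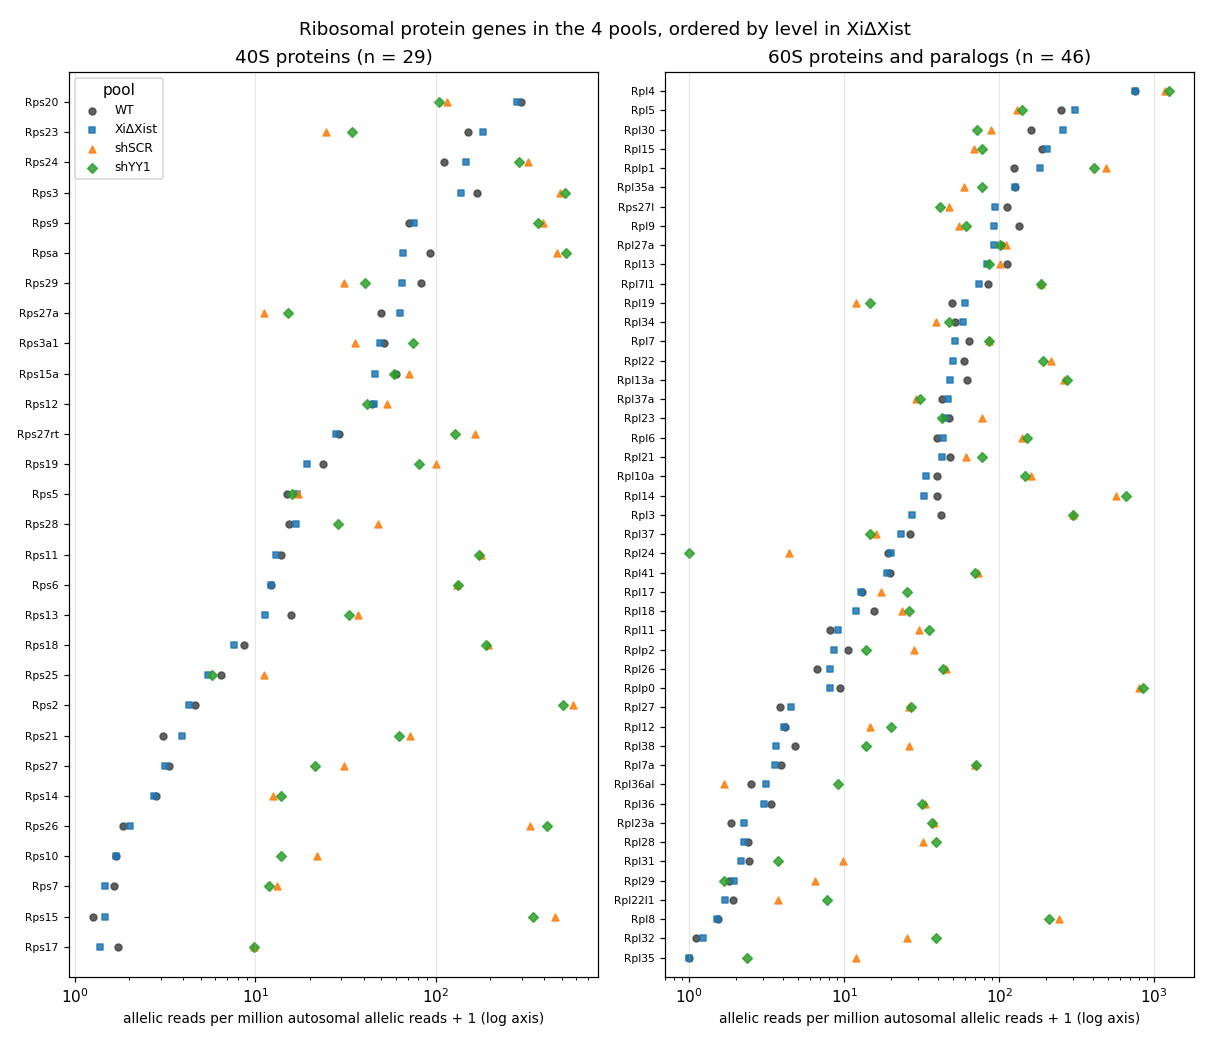
Total level of 75 of the 77 members in the 4 pools, as CPM plus 1 on a log axis, with 1 point per pool and genes ordered by their level in XiΔXist (40S genes on the left, 60S genes and paralogs on the right). WT and XiΔXist points lie close together for nearly all genes, as do shSCR and shYY1 points. The untreated and the hairpin pools are far apart for genes such as Rps15, Rps26 and Rpl8.

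The first comparison asked whether deletion of Xist went along with a change in these autosomal genes. Few members differed. Of 66 members whose reads in the 2 pools summed to 50 or more, 2 were higher and 3 lower in XiΔXist by 0.5 or more on the log2 scale of CPM + 1, against 9.36% and 16.5% of all 10315 autosomal genes tested, so that the members' counts lay below the background. Their median change was -0.08, the same as that of all genes (-0.08), and their SD was 0.28 against 0.77. By subunit, 0 of 25 40S genes were higher and 1 lower, and 2 of 38 60S genes were higher and 2 lower. Of the 66 fold intervals, 33 include 1. By Fisher's exact test on the reads of these pools, 30 members had an adjusted p under 0.05, 10 higher and 20 lower, against 57.5% of all genes.

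Rpl30 rose most, from 159 to 258 CPM (1.62-fold, exact 95% interval 1.55 to 1.70). Reads of both its alleles were higher, from 60.3 to 122 CPM for 129 and from 98.9 to 136 CPM for CAST. Rplp1, an acidic protein of the stalk that recruits elongation factors, went from 124 to 182 CPM (1.47-fold, 1.40 to 1.55). The partners of Rplp1 in the stalk did not pass the threshold: Rplp0 stood at 8.43 and 7.08 CPM (0.839-fold, 0.667 to 1.06) and Rplp2 at 9.496 and 7.54 CPM (0.794-fold, 0.638 to 0.989). The lower genes were Rpl3, which lies near the peptidyl transferase center, from 41.3 to 26.3 CPM (0.636-fold, 0.569 to 0.71), Rpl9 from 133 to 91.8 CPM (0.689-fold, 0.649 to 0.731), and Rpsa, the 40S protein also known as the laminin receptor, from 92.5 to 64.8 CPM (0.70-fold, 0.652 to 0.752). All 5 have near-identical copies, from 10 for Rplp1 to 23 for Rpl3.

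The scaling decides the split of these calls. With median-of-ratios size factors the change of the median autosomal gene moved up by 0.12, and 4 members were higher, Rpl30, Rplp1 and Rps24 among them, and 1 was lower (Rpl3). Over all autosomal genes the shares were then 13.5% higher and 12.1% lower. With the median change of each chromosome subtracted, 2 members were higher and 0 lower. Rpl30, Rplp1 and Rpl3 kept their direction and call under the median-of-ratios scaling, while Rpl9 and Rpsa did not pass it.

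Rpl30, Rplp1, Rpl3 and Rpsa were themselves named for known roles. The other members so named moved less, none of those tested by 0.5. Rpl5 and Rpl11, which with 5S rRNA bind Mdm2 and so link ribosome assembly to p53, stood at 247.5 and 308 CPM (1.24-fold, 1.20 to 1.29) and at 7.15 and 8.06 CPM (1.13-fold, 0.894 to 1.42). Rps19, whose human counterpart is mutated in Diamond-Blackfan anemia, went from 22.7 to 18.3 CPM (0.806-fold, 0.701 to 0.927). Rps6, the 40S protein phosphorylated downstream of mTOR, was at 11.2 CPM in both pools. Rps27a, made as a fusion with ubiquitin, stood at 49.0 and 62.4 CPM (1.27-fold, 1.17 to 1.39). Of the paralogs, Rps27l went from 111 to 93.3 CPM (0.839-fold, 0.789 to 0.893) and Rpl7l1 from 83.2 to 72.9 CPM (0.876-fold, 0.816 to 0.94). Rpl32 had 2 and 5 reads, too few to be tested. Rpl22 was at 58.2 and 49.6 CPM (0.852-fold, 0.782 to 0.928). Among the members closest to the threshold were Rps24 (110.5 and 147 CPM, 1.33-fold, 1.26 to 1.41), Rps13 (14.7 and 10.35 CPM, 0.703-fold, 0.587 to 0.8425) and Rpl38 (3.84 and 2.62 CPM, 0.683-fold, 0.473 to 0.982).

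Other genes of the pathway were read against the same background (9.36% higher and 16.5% lower). Of 13 translation factors of the 5′ TOP class tested, 1 was higher (Tpt1, from 6.56 to 11.9 CPM) and 2 lower (Eef2 and Eif3f), with a median change of -0.12. Among 36 ribosome biogenesis genes 1 was higher (Gnl3, a nucleolar GTPase, from 211 to 325 CPM) and 1 lower (Utp4, of the small subunit processome, from 117 to 51.9 CPM).

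The second comparison asked whether lowering YY1 changed these genes. The summed level of the members was 10560 CPM in shSCR and 10440 in shYY1, with overlapping intervals, while Yy1 itself was at 161 and 62.5 CPM. Of 62 members tested, 3 were higher and 6 lower in shYY1, against 9.16% and 9.9% of 7979 autosomal genes, so that neither count stood above the background. Their median change was -0.03, against -0.02 for all genes. Of 24 40S genes 1 was higher and 3 lower, and of 36 60S genes 2 were higher and 3 lower. At this depth, 9 members past the threshold fell to 3 when an adjusted Fisher p under 0.05 on the reads of these pools was also required, and to 0 of 34 with at least 200 reads.

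Rps3a1 had the largest rise, from 34.7 to 74.0 CPM (51 and 109 reads, 2.13-fold, exact 95% interval 1.52 to 3.04). The others above the threshold were Rpl32, from 24.5 to 38.0 CPM (1.55-fold, 1.005 to 2.43), and Rpl17, from 16.3 to 24.5 CPM (1.499-fold, 0.87 to 2.63), whose interval includes 1. Among the lower genes Rplp2 went from 27.2 to 12.9 CPM (0.475-fold, 0.26 to 0.839), Rpl38 from 25.2 to 12.9 CPM (0.513-fold, 0.279 to 0.915) and Rpl23 from 76.2 to 41.4 CPM (0.544-fold, 0.392 to 0.75). Rpl38 is the 60S protein needed for translation of a set of Hox mRNAs in the mouse embryo. Rps28 went from 46.9 to 27.9 CPM (0.594-fold, 0.393 to 0.886), and Rps10 and Rps27 had intervals that include 1. The adjusted Fisher test kept Rps3a1, Rpl23 and Rplp2.

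Rpl30, a classical YY1 target, was at 87.0 CPM (128 reads) in shSCR and 70.7 CPM (104 reads) in shYY1, a fold of 0.812 with an interval of 0.621 to 1.06. With Rpl32 higher and Rpl30 lower in value, the values of these genes lay on opposite sides of 1. Of the 12 genes with a YY1 core in a promoter window 10 could be tested, and 0 were higher and 2 lower (Rps28 and Rps27), with a median change of -0.09. Of 37 tested genes whose windows lacked the core 1 was higher and 4 were lower, with a median of -0.04. Rps28, shown above with its core 72 bases before the start, thus had the lowest fold in this group, while Rpl35a (57.8 and 76.8 CPM, 1.33-fold, 0.994 to 1.78) and Rpl28 (31.3 and 38.0 CPM, 1.22-fold, 0.809 to 1.84) had values above 1. Rps15a stood at 70.0 and 57.7 CPM (0.825-fold, 0.611 to 1.11) and Rps19 at 99.9 and 80.2 CPM (0.802-fold, 0.624 to 1.03). The difference between genes with and without the core was not tested, and Rpl30 and Rpl32 were not part of either set.

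**Figure D2:**
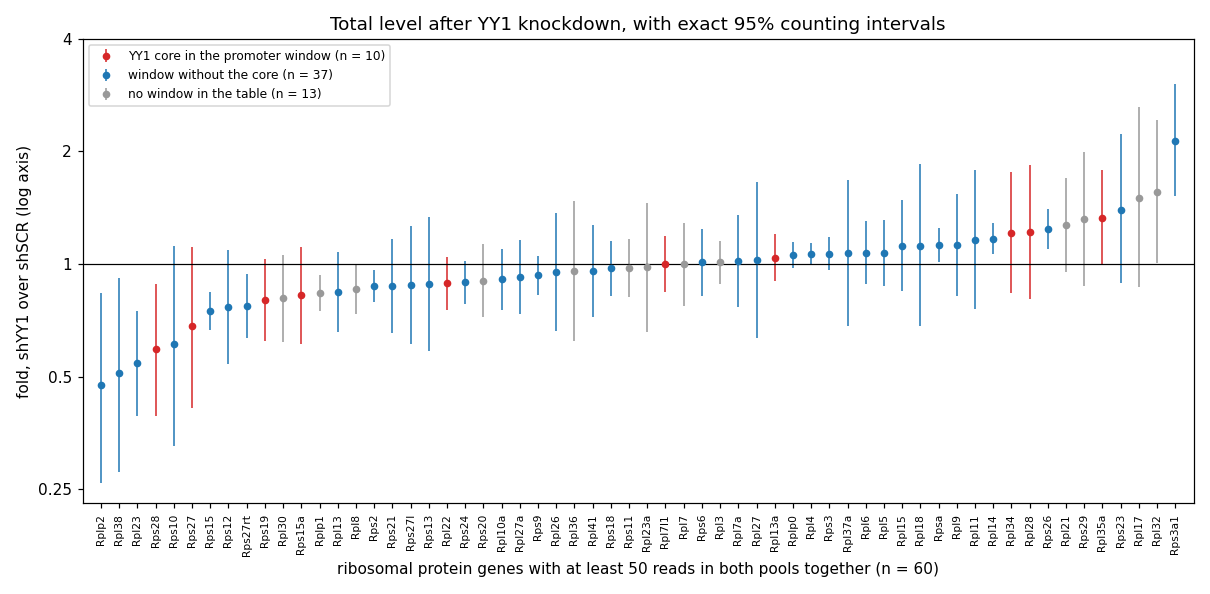
Fold of the total level in shYY1 over shSCR on a log axis for 60 of the 62 members tested, with exact 95% counting intervals as bars and genes in order of fold. Colors mark genes with a YY1 core in a RefSeq promoter window, genes whose windows lack it and genes with no window in the table. The 10 genes with the core are spread over the range from 0.594 (Rps28) to 1.33 (Rpl35a), and most intervals include 1.

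Some other members of known role had fold intervals that include 1. These were Rpl5 (129 and 139 CPM, 1.07-fold, 0.876 to 1.31), Rpl11 (29.2 and 34.0 CPM, 1.16-fold, 0.757 to 1.79) and Rps6 (131 and 132.5 CPM, 1.01-fold, 0.823 to 1.24). Rplp0 did the same, at 796 and 843 CPM (1.06-fold, 0.977 to 1.15). Rpsa was at 469.8 and 528 CPM (1.12-fold, 1.01 to 1.25), and Rps26 at 331 and 411 CPM (1.24-fold, 1.1 to 1.40). Rps15 was at 458 and 344 CPM (0.75-fold, 0.667 to 0.843), short of the threshold. Rps12 (53.0 and 40.8 CPM, 0.769-fold, 0.54 to 1.09) lay near it, as did Rps29 (29.9 and 39.4 CPM, 1.32-fold, 0.875 to 1.995). Of the 62 intervals, 48 include 1.

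GC content of the transcript ran alongside this comparison. Over the 62 members the change had a Spearman correlation of -0.36 with GC content, against -0.14 over 7451 autosomal protein-coding genes, a description of points that share 2 pools. Among the members with a GC content over 53.5% the median change was -0.22, with 0 of 21 higher and 5 lower. Below 49.3% it was 0.09, with 2 of 23 higher and 1 lower. All autosomal genes over 53.5% had a median of -0.08, with 8.18% higher and 14.4% lower, and those below 49.3% a median of 0.03, with 9.52% higher and 6.89% lower. With the median change of genes of like GC content subtracted, 3 members were higher and 5 lower, beside 712 and 647 of 7451 autosomal genes. The part of GC content in these differences was not tested.

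Other genes of the pathway were read in shYY1 against the shares of all 7979 autosomal genes, 9.16% higher and 9.9% lower. Among them 0 of 13 TOP-class factors passed the threshold (median -0.06). Of 35 ribosome biogenesis genes 1 was higher and 5 were lower, with a median of -0.13. With so few genes past the threshold, the names that follow are a description. The higher gene was Polr1e, a subunit of RNA polymerase I, from 34.7 to 61.1 CPM. The lower ones were Polr1b of the same enzyme (40.1 to 25.1 CPM), the transcription factor Myc (90.4 to 50.3 CPM), Mybbp1a (75.5 to 51.6 CPM), Ddx56 (72.8 to 50.3 CPM) and Sdad1 (128.5 to 83.6 CPM). Fau, a fusion that yields the 40S protein eS30, was at 27.2 and 14.9 CPM on 40 and 22 reads. Of 9 fibroblast markers tested, 5 were higher and 0 lower against the same shares, among them Col1a1 (1287 and 1828 CPM).

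The untreated XiΔXist pool and the shSCR pool carry the same genotype label. They differ in allelic makeup, as given above for chromosomes 12, 13 and 14, beside read length and treatment. Here most members differed. Of 68 tested, 46 were higher and 15 lower in shSCR by the same threshold, against 53.4% and 28.9% of 10032 autosomal genes. Their median change was 1.70, and that of all genes 0.70. Under median-of-ratios scaling, which moved the change of the median autosomal gene by -1.53, the counts were 27 higher and 28 lower and the members' median was 0.13, with 30.1% of all genes higher and 55.5% lower.

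The largest differences were found in genes at under 10 CPM in the untreated pools. Rps15 had 10 reads (0.469 CPM) in XiΔXist and 674 (458 CPM) in shSCR, Rps26 had 22 and 487 (1.03 and 331 CPM), and Rpl8 had 11 and 355 (0.515 and 241 CPM). Rps2 went from 3.28 to 579.9 CPM (177-fold, exact 95% interval 138.5 to 229) and Rplp0 from 7.08 to 796 CPM (112.5-fold, 94.9 to 134). WT stood with untreated XiΔXist in each of these 5 genes, and shYY1 with shSCR. At the other end Rps23 went from 182 to 23.8 CPM (0.131-fold, 0.0909 to 0.182), Rps27a from 62.4 to 10.2 CPM (0.164-fold, 0.0913 to 0.271), and Rpl19 from 59.2 to 10.9 CPM (0.184-fold, 0.105 to 0.2995). Rpl24 had 405 and 5 reads and Rpl15 was at 203 and 68.0 CPM (0.334-fold, 0.271 to 0.408).

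These differences ran with the GC content of the transcripts, which was 51.8% in the median member (40.6% to 62.4%) and 49.4% in the median expressed autosomal gene. Across 8640 autosomal genes the change had a Spearman correlation of 0.72 with GC content, and across the 68 members of 0.43, again a description of genes measured in the same pools. Below 49.3% GC, 12 of 24 members were higher and 9 lower (median 0.47), and above 53.5% 17 of 23 were higher and 3 lower (median 2.26). All autosomal genes below 49.3% had a median of -0.35, with 30.3% higher and 45.7% lower, and those above 53.5% a median of 3.58, with 92.5% higher and 3.54% lower. With the median change of genes of like GC content subtracted, the members' median was -0.26, with 25 higher and 28 lower, beside 3075 and 3122 of 8640 autosomal genes. At like GC content the members' median thus lay slightly below that of other genes. The part of GC content in these differences was not tested.

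**Figure D3:**
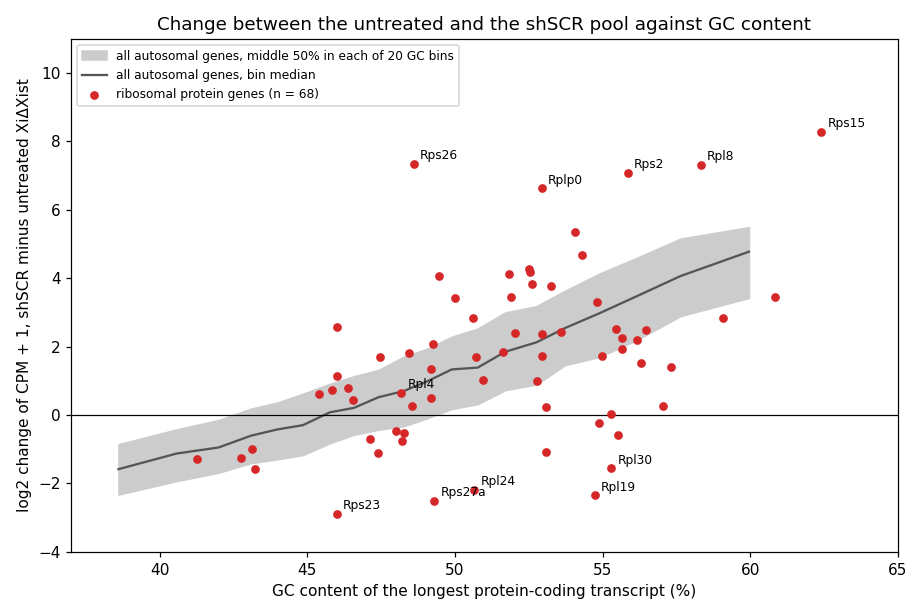
Change of log2(CPM + 1) from the untreated XiΔXist pool to the shSCR pool against the GC content of the longest protein-coding transcript. Red points are the 68 members tested, the line is the median of all autosomal genes in 20 GC bins and the band their middle 50%. The line climbs with GC content, and members lie on both sides of it, from Rps15 at 8.29 to Rps23 at -2.88.

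The change was also read by the number of near-identical copies. The 8 tested members with no copy had a median change of 0.14, with 3 higher and 3 lower. The 29 with 1 to 9 copies had 1.94, with 23 higher and 5 lower. The 31 with 10 or more copies had 1.13, with 20 higher and 7 lower. Of all genes 53.4% were higher and 28.9% lower. The medians thus did not rise steadily with copies. These groups were not matched for GC content, and the part of copies was not tested. Reads on the 233 annotated autosomal pseudogenes of ribosomal proteins came to 482 CPM in WT and 458 in XiΔXist. They came to 3656 CPM in shSCR and 3555 in shYY1, so that they too differed between the untreated and the hairpin pools. Other genes of the pathway, against the same 53.4% higher and 28.9% lower of all genes, differed by list. Of 14 TOP-class factors 9 were higher (Eef2 from 8.25 to 1919 CPM) and 5 lower (Eef1b2 from 860.5 to 255 CPM), and of 37 biogenesis genes 25 were higher and 4 lower. All 5 tested snoRNA host genes were lower (median -1.97), among them Gas5 from 747 to 133 CPM. Rack1, a 40S protein under another name, went from 34.3 to 305 CPM.

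The share of 129 reads was examined next. The autosomes of these lines are not all balanced between the strains: over long stretches nearly every gene is read from 129 alone. Each member was therefore set beside the 20 nearest genes with at least 20 reads, 10 on each side, other ribosomal protein genes left out. Of 67 members with at least 10 reads in every pool, 28 had a 129 share over 90% in every pool, or 41.8%, against 39.1% of 8679 autosomal genes. All 28 lay where the neighbors' median share was over 80% in every pool, and 26 where it was over 95%, so that gene and region were read alike. They include Rpsa, Rps3, Rps19, Rpl3, Rplp2, Rps2 and Rpl8, and 15 of the 28 had no CAST read in any pool. Another 24 members were read from both alleles (10% to 90%) in every pool, and 21 of these had neighbors' medians between 25% and 75% throughout.

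Where the neighbors were read from both alleles (median 25% to 75%), a few members were nevertheless read nearly from a single allele. Of 32 such members with at least 50 reads in WT, 3 had a 129 share over 90%, namely Rpl11, Rplp0 and Rplp1, against 2.88% of 4681 autosomal genes, and 2 had a share under 10%, Rpl38 and Rps29, against 2.35%. In XiΔXist 2 of 32 were over 90% (Rpl11 and Rplp1, background 2.92%) and 2 under 10% (Rpl38 and Rps29, background 2.49%). The pools gave the same names except Rplp0, at 88.1% in XiΔXist. With so few genes the counts are a description. Conversely, where the neighbors were over 95% 129, Rpl34 and Rps3a1 had shares of 90% or less in both pools, 2 of 25 members in WT (background 10.2%) and 2 of 26 in XiΔXist (background 10.7%).

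Rps29 had a 129 share of 5.29% (95% Wilson interval 4.28% to 6.53%) in WT and 8.30% (6.95% to 9.89%) in XiΔXist, beside neighbors at 48.6% and 51.1%. It has no near-identical copy by the criterion used. In shSCR its share was 18.2% on 44 reads and in shYY1 3.45% on 58. Rplp1 was at 90.6% (89.3% to 91.7%) in WT and 96.6% (96.0% to 97.1%) in XiΔXist but at 62.8% (59.2% to 66.2%) in shSCR and 68.2% (64.4% to 71.8%) in shYY1, with neighbors between 32.7% and 52.4%. The stalk base Rplp0 was likewise higher in the untreated pools (93.0% and 88.1%) than in the hairpin pools (67.1% and 64.4%). Rps6 went the other way, at 38.1% and 29.7% in the untreated pools and 7.77% and 8.72% in the hairpin pools, while its neighbors stayed between 51.9% and 60.9%. Rps15, with 5 and 10 reads in the untreated pools, was at 95.25% and 94.9% in the hairpin pools beside neighbors at 54.9% and 52.5%. For Rplp1, Rplp0 and Rps6 the untreated pools thus lay on 1 side and the hairpin pools on the other. These genes have 10, 9 and 14 near-identical copies, and whether reads of copies enter their shares was not tested.

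Rpl34 on chromosome 3 had CAST reads in a stretch read from 129. Its share was 24.1%, 19.1%, 35.7% and 39.7% in WT, XiΔXist, shSCR and shYY1, with neighbors at 99.6%, 98.5%, 97.9% and 95.2%. It had 723 CAST reads in WT and 990 in XiΔXist, and it has 10 near-identical copies elsewhere. Rpl15 on chromosome 14 showed the reverse in the hairpin pools, where its neighbors had a median 129 share of 0% in both. Its share was 64.8% in WT and 54.95% in XiΔXist, beside neighbors at 61.2% and 51.5%, then 17.0% (10.9% to 25.6%) in shSCR and 45.5% (36.6% to 54.8%) in shYY1. Rpl15 has 21 near-identical copies. Rps24 on the same chromosome followed its neighbors closely, with 61.6%, 48.6%, 1.05% and 4.0%. Whether reads of copies make up the unmatched share of Rpl34 and Rpl15 was not tested.

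**Figure D4:**
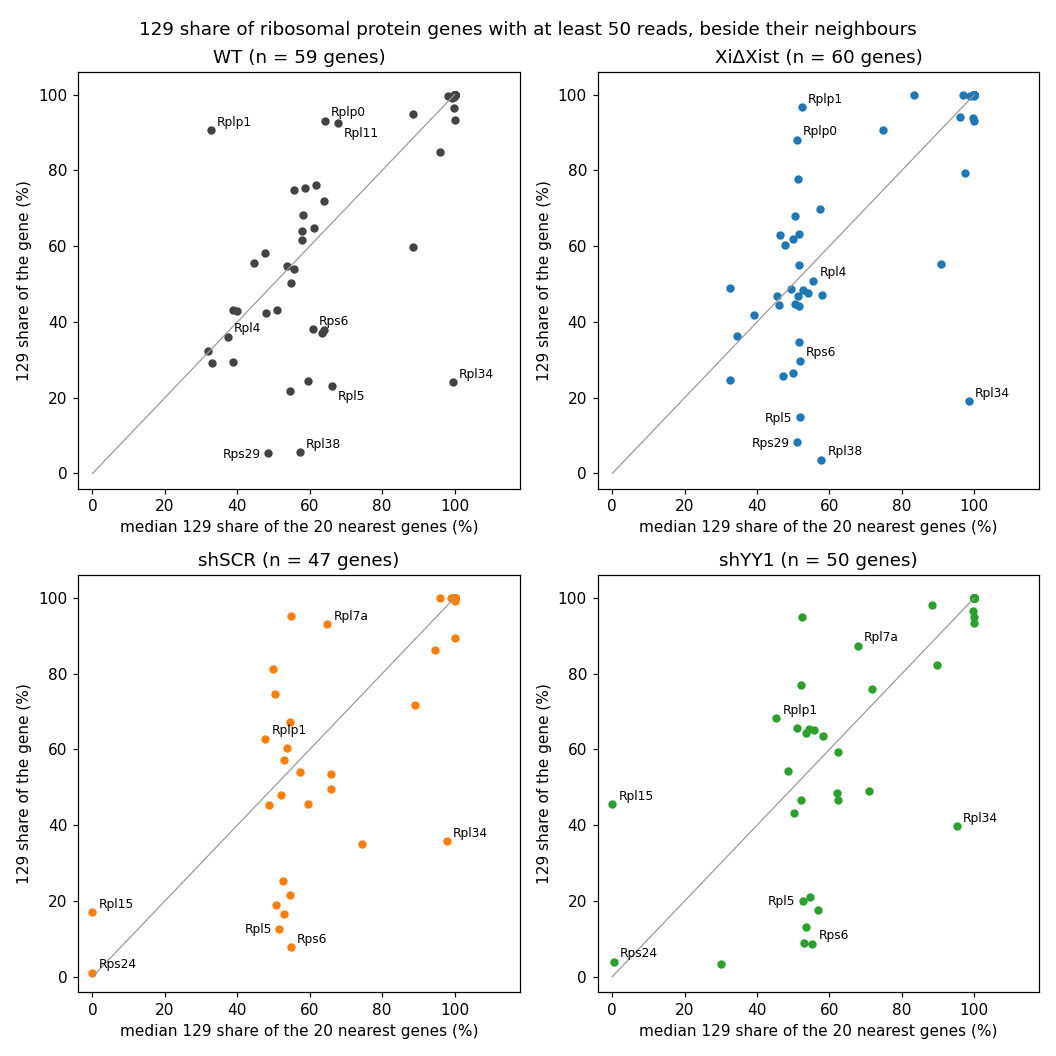
Share of 129 reads of each member with at least 50 reads (vertical axis, percent) against the median share of its 20 nearest genes (horizontal axis, percent), 1 panel for each pool, with a line of equality. Many members sit at the upper right, where region and gene are both read from 129, and Rpl34 lies far below the line in all 4 panels. Rpl15 and Rps24 move to the left edge in the hairpin pools.

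Between WT and XiΔXist, 10 of 73 members had a 129 share higher by at least 3 percentage points and 25 a lower one, against 17.7% and 27.5% of 11409 autosomal genes. The largest rises with at least 50 reads in each pool were on chromosome 9. Rps25 went from 29.1% to 48.4%, Rpl4 from 36.05% (35.3% to 36.9%) to 50.8% (50.03% to 51.6%) and Rps27l from 32.3% to 46.8%. Their neighbors went from 33.0% to 52.7%, from 37.3% to 55.6% and from 31.95% to 45.6%, so that gene and region moved together. Rpl30 rose from 37.9% to 47.1%, while its neighbors stood at 63.85% and 58.05%. The falls were led by Rpl7a (58.2% to 41.8%), Rps24 (61.6% to 48.6%), Rpl6 (37.1% to 25.6%), Rpl17 (54.9% to 44.8%) and Rpl15 (64.8% to 54.95%). The intervals of Rpl7a, on 55 reads in each pool, overlap, as do those of Rpl17. The neighbors of each fell too, from 47.8% to 39.1%, 57.9% to 49.2%, 63.5% to 47.3%, 53.7% to 50.6% and 61.2% to 51.5% in this order. Rpl5 fell from 23.0% (21.9% to 24.3%) to 14.8% (14.0% to 15.7%), with neighbors at 66.1% and 51.8%. Of the 35 members past 3 points, 26 moved in the direction of their neighbors. The like share over all autosomal genes was not computed, so that this count is a description. Of all 73 members tested, 17 had an adjusted Fisher p under 0.05, near the 19.9% of all 11409 autosomal genes tested.

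Between shSCR and shYY1, 18 of 70 members were higher and 15 lower by this measure, against 23.3% and 22.5% of 9720 autosomal genes, near the background in both directions. Of the 33 past 3 points, 9 moved in the direction of their neighbors, again with no share over all autosomal genes computed. Of all 70 members tested, 3 had an adjusted Fisher p under 0.05 (1.20% of all autosomal genes tested had such a p). These were Rpl15 (17.0% and 45.5%), Rpl4 (48.0% and 54.3%) and Rps9 (99.3% and 94.8%). Rps9 lies in a stretch where its neighbors were at 100% in both pools. Rpl30 was at 35.2% (27.4% to 43.8%) and 49.0% (39.6% to 58.5%), with overlapping intervals. Rps27l fell from 60.3% to 43.3% on 68 and 60 reads, also with overlapping intervals.

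Between untreated XiΔXist and shSCR, 19 of 70 members had a higher and 19 a lower share, against 28.8% and 24.3% of 9212 autosomal genes. Rpl7a had the largest rise, from 41.8% to 93.1%, beside neighbors at 39.1% and 64.8%, and Rpl13a rose from 24.7% to 49.5%, beside neighbors at 32.4% and 65.8%. Rps24 (48.6% to 1.05%) and Rpl15 (54.95% to 17.0%) had the largest falls among members with at least 50 reads in each pool, followed by Rplp1 (96.6% to 62.8%), Rps6 (29.7% to 7.77%) and Rplp0 (88.1% to 67.1%). Of the 38 members past 3 points, 16 moved in the direction of their neighbors, a count for which no share over all autosomal genes was computed. Subtracting the neighbors' change left 42 of 70 members past 3 points here. It left 30 of 73 between WT and XiΔXist and 32 of 70 between shSCR and shYY1. The share of all autosomal genes past 3 points was not computed for this measure. The median absolute change left was 5.76 points in members and 3.92 in all autosomal genes. Between WT and XiΔXist it was 1.51 and 1.91, and between shSCR and shYY1 2.13 and 2.64. The hairpin pools are shallower, and the part of counting error was not tested.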

How the data were processed

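For each group and allele (129 or CAST) the authors deposited 1 column of raw counts per Ensembl gene. According to the study's methods, the authors pooled the replicates of a group before alignment with TopHat to a strain-masked mouse genome (GRCm38/mm10), removed reads of low mapping quality, assigned reads to alleles by SNPsplit and obtained exon counts from featureCounts (1.6.3 per the submitters' processing notes). Neither the annotation release nor the strand setting was given in the sources used here, so that reads of overlapping or antisense genes cannot be told apart. Reads of low mapping quality are those that fit several places, and their removal lowers counts of genes with near-identical copies.

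Symbols, types and positions came from GENCODE M21, which matched 45229 of 46078 IDs. The rule found 359 symbols, of which 268 were annotated pseudogenes and 91 protein coding. Of the latter, 4 were X-linked and 6 carried a "-ps" symbol, and these were left out. Members and gene lists were chosen with earlier results of these data known. Total levels were 129 + CAST counts per 1000000 autosomal allelic reads (CPM). Changes were differences of log2(CPM + 1) among genes with a sum of 50 or more reads over the pools compared, called at 0.5. A share was 129 reads over all allelic reads, compared with at least 10 reads in each pool and called at 3 percentage points. Since a group was 1 pool, no test across replicates was made. Fisher's exact test (two-sided, Benjamini-Hochberg adjusted over all autosomal genes tested) compares pools and not conditions. Intervals are exact for folds (Clopper-Pearson, conditional) and Wilson for shares, at 95%, and cover counting error only. Near-identical copies matched a member's coding transcript at 90% identity over 50% of its length (blastn 2.17.0). GC content was that of the longest protein-coding transcript. The comparison with the 10 nearest genes on each side, the GC bins and the choice of printed promoters were added after seeing the data.

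Genes are named by rules set with the design: per comparison the 5 largest rises and falls (levels: a sum of 100 or more reads, shares: at least 50 in each), genes under 10% or over 90% on balanced chromosomes, and members of known role. Values of 2 members are not reported here, although they are counted. Not every gene so named is described, and calls on fewer reads are named where counts of 5 or fewer were given. Python 3.11.15, numpy 2.4.6, pandas 2.3.3, scipy 1.17.1 and matplotlib 3.10.9 were used, and the scripts were tested on simulated data. Alternatives were other scalings, read minimums, pseudocounts and thresholds, 1 allele alone, chromosome medians subtracted, and members without copies.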

Additional observations from a re-analysis of the deposited data

Results flagged for a closer look

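Rps4x, a ribosomal protein gene of the X chromosome (chrX:102184941-102189394, GRCm38) and so outside the 77 members, had 0 of 707 reads from the 129 allele in WT, so that a share of up to 0.424% is possible. In XiΔXist it had 711 of 1588, or 44.8% (Wilson 95% interval 42.3% to 47.2%). Its total went from 37.7 to 74.4 CPM (1.97-fold, 1.80 to 2.16), while its CAST reads stood at 37.7 and 41.1 CPM (1.09-fold, 0.986 to 1.21). The hairpin pools carry the same genotype label but differ from untreated XiΔXist in the 129 share of whole autosomes (chromosome 14 at 52.0% and 0%), so that clone, passage, library and treatment cannot be told apart here. In them it had 0 of 112 reads from 129 in shSCR, which allows up to 2.68%, and 2 of 111 (1.80%, 0.495% to 6.33%) in shYY1. These values were singled out because the reads lie outside the genes compared and exceed the level in the control pool. Rpl10, also X-linked, had no 129 read in any pool on 365, 413, 37 and 42 reads, and Rpl36a and Rpl39 had no read.

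Annotated autosomal pseudogenes of ribosomal proteins were singled out because their reads too lie outside the genes compared. They held 482 CPM in WT and 458 in XiΔXist, and 3656 in shSCR and 3555 in shYY1. Set against the members' own reads, this was 11.5%, 10.8%, 34.6% and 34.1%. In the untreated pools Rpl39-ps led with 232 and 207 CPM. In the hairpin pools Rps16-ps2 led with 1246 and 1230 CPM, followed by Rpl39-ps with 613 and 607 CPM, while Rps16 itself had 3 to 6 reads in every pool.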

How the results depend on the processing

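No paired analysis was possible because the replicates of each group are pooled in 1 column per allele. For the same reason no replicate could be left out. Of 84 values recomputed under an alternative, 56 stayed within 1.5 times the count or, for a median change, within the typical counting interval of a member,, and 28 moved. For XiΔXist against WT the 5 members changed in level became 2 with chromosome medians subtracted, 0 among the 7 without copies and 3 with GC bins subtracted. The 35 moved in share became 12 at a threshold of 0.1, 17 with the Fisher test and 2 without copies. For shYY1 against shSCR the 9 changed became 14 from 10 reads, 0 from 200 reads, 5 with CAST reads alone, 1 without copies and 3 with the Fisher test, and the 33 moved in share became 12 at 0.1, 3 with the Fisher test, 21 from 50 reads, 21 between 0.1 and 0.9, and 3 without copies. For shSCR against untreated XiΔXist the median change of 1.70 became 0.13 by median-of-ratios, 1.13 from 200 reads, 0.39 with CAST reads alone, 0.58 with chromosome medians subtracted, 0.14 without copies and -0.26 with GC bins subtracted. The 61 changed became 32 with CAST reads alone and 6 of 8 without copies, and the 38 moved in share became 20 with the Fisher test, 22 from 50 reads, 25 between 0.1 and 0.9, and 3 without copies. Fewer members were tested from 50 or 200 reads, with 1 allele, between 0.1 and 0.9 and without copies. For the other settings the cause was not tested. The GC and neighbor corrections were chosen after seeing the data. Depth limits the hairpin pools most, where 3 reads are 2.04 CPM against 0.16 in WT.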
